A study of Rattus norvegicus with 6 samples.

Results

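Gene expression was compared between rat retinal ganglion cell neurons (RGCs) given the secreted proteoglycan glypican 4 (Gpc4) and RGCs left untreated (Alone). The comparison is between 4 of the 6 arrays analysed, 2 Gpc4 and 2 Alone, over all 31042 probe sets. Gpc4 and Alone arrays were set against each other by replicate number, taken here as the culture. The test also drew on the 2 other arrays, of RGCs given another protein, for its estimate of the spread and of the culture difference, and a blocked limma fit without them called 0 probe sets, with 2101 at an unadjusted p under 0.05. The neurons were taken from rats at postnatal day 6, purified by immunopanning, and kept for 12 days in a medium with the growth factors BDNF and CNTF. Gpc4 was then added for 12 hours, while Alone RGCs received no protein, and the 2 other arrays came from RGCs given thrombospondin 1 (TSP1) for the same time. Per the methods, each array carries RNA from pooled wells and the arrays come from 2 separate RGC cultures. The replicate numbers 1 and 2 were taken here to mark these cultures, which neither the labels nor the methods state. Culture 1 and culture 2 below mean the arrays of that replicate number. The Gpc4 protein carried a His tag and was captured on nickel-coated beads from medium conditioned by transfected HEK293 cells, a human kidney line, whereas TSP1 was a purchased recombinant mouse protein. None of the arrays analysed here carries RGCs given a mock preparation, so a response to Gpc4 and a response to anything that came with its purification cannot be told apart.

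Gpc4 is a heparan sulfate proteoglycan that astrocytes release and that induces active, AMPA receptor-containing synapses between RGCs. Heparan sulfate chains also bind extracellular ligands, among them the bone morphogenetic proteins (BMPs). BMPs act through serine/threonine kinase receptors that phosphorylate SMAD1, SMAD5 and SMAD9, and these enter the nucleus with SMAD4 and switch on a short list of early targets, chiefly the Id genes and inhibitors of the pathway such as noggin and SMAD7. TGF-beta and activin use a separate arm with SMAD2 and SMAD3. In RGCs, BMPs are known for their part in dorsoventral patterning of the retina and in axon guidance.

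Values are log2 RMA expression values, so a difference of 1 is a doubling of the signal. The median of an array lay at 5.96 to 5.99 on this scale. No detection calls were used here, and a value under that median is not shown to be above background. For a gene with Alone values under it, the log2 difference is one of array signal, and the size of the change in mRNA is not settled by it. Arrays of a group differed by a median of 0.10 to 0.11 (log2, absolute), and the small number of arrays limits the precision. A probe set was called when limma, fitted to all 6 arrays with the culture as a block, gave an adjusted p under 0.05 over all probe sets and when both cultures moved the same way. In bulk RNA, fewer cells of a type and less RNA per cell cannot be told apart. Of the 20 measured RGC genes 19 lay above the array medians, and none of the 20 was called. Gamma-synuclein (Sncg) read 13.97 to 14.03 and the vesicular glutamate transporter Slc17a6 13.19 to 13.24 on the 4 arrays. Lying above the medians does not by itself mark RGCs. Of the Müller glia markers 7 of 8 did so, of the fibroblast markers 10 of 11, and of the amacrine and horizontal markers 8 of 12. The median Alone value was 11.74 for the RGC list, against 9.495, 7.045 and 6.97 for these lists. Pou4f2, Pou4f3, Ebf3 and Atoh7 of the RGC list were not analysed here.

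Gpc4 raised 57 of 31042 probe sets (0.184%) and lowered 7 (0.0226%). They covered 42 named genes that were higher, 5 that were lower, and 12 probe sets with no gene symbol. Read on 1 probe set per gene, 0.295% of the 14217 named genes were higher and 0.0352% lower. These shares belong beside every count of called list members below, and a single called gene is not read as a result about its list. The rises ran from 0.64 to 4.12 with a median of 1.02, and 31 of the 57 were at least 1. The falls ran from -0.66 to -1.13. A fit with no term for the culture called 26 of the same probe sets higher (0.0838% of those tested) and none lower, so 21 named genes were higher under both fits and 21 only with the culture as a block. Where an adjusted p without the block is given below, it is the value that this second fit gave.

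**Figure D1:**
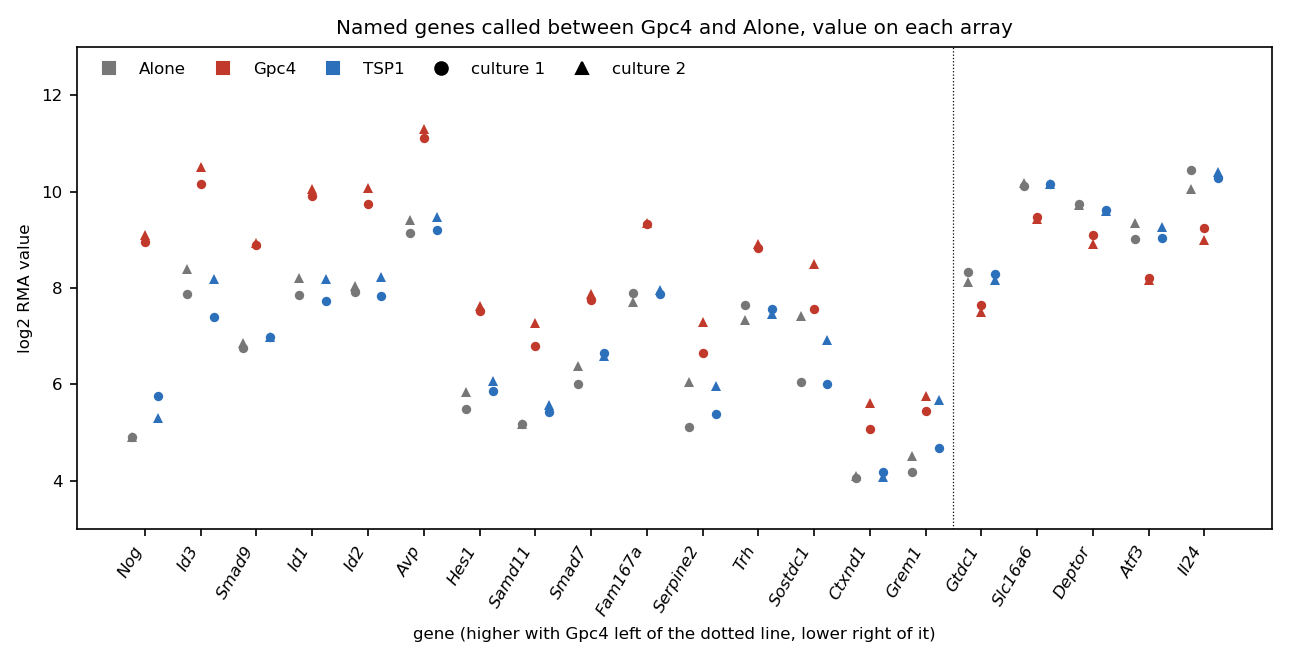
Log2 RMA values (vertical axis) of the 15 most raised genes and the 5 lowered genes on each of the 6 arrays, with colour for the group and shape for the culture. Both Gpc4 arrays lie above both Alone arrays for each gene left of the dotted line and below them right of it. The call rule favours this separation. For Sostdc1 and Serpine2 the Alone arrays of the 2 cultures lie far apart.

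The promoters of 4 raised genes are shown early because 3 of them act within BMP signaling and the fourth, Syndig1, belongs to AMPA receptors. Each is the 300 bases from 250 before to 50 after the start of the gene in RefSeq (build GRCr8), read on the gene's strand. Capitals mark GGCGCC, a GC-rich sequence that BMP-activated SMADs bind, and GTCTG or its reverse complement CAGAC, a SMAD box. Nog lies at chr10:74627452-74627751 on the minus strand, Smad9 at chr2:141106418-141106717 on the plus strand, Id1 at chr3:161671314-161671613 on the plus strand and Syndig1 at chr3:158492040-158492339 on the plus strand.
Nog: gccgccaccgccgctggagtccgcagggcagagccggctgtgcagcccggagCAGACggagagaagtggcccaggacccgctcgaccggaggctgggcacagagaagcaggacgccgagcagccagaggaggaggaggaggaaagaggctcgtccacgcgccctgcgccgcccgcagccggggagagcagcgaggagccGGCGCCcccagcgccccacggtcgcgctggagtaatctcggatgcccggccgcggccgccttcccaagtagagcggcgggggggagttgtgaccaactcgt
Smad9: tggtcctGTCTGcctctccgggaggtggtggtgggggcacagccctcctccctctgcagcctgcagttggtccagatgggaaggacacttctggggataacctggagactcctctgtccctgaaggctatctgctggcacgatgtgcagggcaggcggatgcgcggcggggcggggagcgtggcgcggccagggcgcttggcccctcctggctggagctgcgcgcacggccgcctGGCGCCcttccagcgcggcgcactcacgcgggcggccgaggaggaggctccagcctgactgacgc
Id1: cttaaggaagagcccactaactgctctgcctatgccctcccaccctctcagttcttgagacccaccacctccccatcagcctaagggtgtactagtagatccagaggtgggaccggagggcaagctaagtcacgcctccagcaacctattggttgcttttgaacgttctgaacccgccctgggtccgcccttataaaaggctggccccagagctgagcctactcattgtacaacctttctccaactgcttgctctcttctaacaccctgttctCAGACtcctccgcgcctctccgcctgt
Syndig1: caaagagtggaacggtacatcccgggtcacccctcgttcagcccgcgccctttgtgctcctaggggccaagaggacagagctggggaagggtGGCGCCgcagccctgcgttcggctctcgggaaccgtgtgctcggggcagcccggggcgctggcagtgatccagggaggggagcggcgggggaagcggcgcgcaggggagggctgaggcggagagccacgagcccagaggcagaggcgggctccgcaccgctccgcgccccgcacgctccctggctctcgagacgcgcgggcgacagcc

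Counted from the start, GGCGCC began at position -51 in the Nog window, at -15 in Smad9 and at -158 in Syndig1, and the Id1 window held none. The windows of Id2 and Id3, not shown, held neither GGCGCC nor GTCTG. A promoter was found for 36 of the 47 named genes that were called. GGCGCC, which reads the same on both strands, was in the window of at least 1 listed start for 17 of these 36 (47.2%), against 20.3% of the 11700 genes named on the array that have a promoter and 12.3% of all 27457 genes in the table. The 17 included the BMP pathway genes Nog, Smad7, Smad9, Bambi and Grem1 beside Trh, Disp3 and Syndig1. GTCTG, searched on both strands, was in 18 of 36 (50%), against 50.7% of the genes named on the array and 51.9% of all genes. The called genes had GC-rich promoters, with a median of 64.8% G or C against 60% for the genes named on the array, and the palindrome GCCGGC of the same base composition was in 9 of 36 (25.0%), against 18.9%. The motifs were chosen with the called genes known, a match is not shown to be a bound site, and the part of GC content was not tested.

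Of 84 measured genes of the BMP and TGF-beta pathway, 10 were higher with Gpc4, none was lower and 74 did not pass. This is 11.9% of the list, against 0.295% of the 14217 named genes on 1 probe set each, and 5 of the 10 (Nog, Smad9, Id1, Id2 and Smad7) were also higher with no block. This list and those below were chosen with earlier results of these data known, so such shares describe the lists and test nothing. The median of the 84 differences was 0.06 on the log2 scale, beside -0.01 over all named genes, so the rises were those of a few genes. The genes that rose were Id genes, antagonists, inhibitors, 1 SMAD and 1 target transcription factor. None of the ligands, receptors and TGF-beta arm targets measured was called.

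Noggin (Nog), a secreted protein that binds BMPs and keeps them from their receptors, had the largest rise among the probe sets called. It read 4.90 and 4.91 in Alone RGCs and 8.95 and 9.09 with Gpc4, and 5.76 and 5.30 with TSP1. The Gpc4 arrays stood about 4 units above the Alone arrays in both cultures, and the Alone values lay below the array medians, so no fold is given. The log2 difference in signal was 4.12 (SE 0.14, adjusted p = 0.000117, limma).

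Sclerostin domain-containing 1 (Sostdc1), also a secreted BMP antagonist, read 6.04 and 7.41 in Alone RGCs and 7.56 and 8.49 with Gpc4. The untreated cultures differed by more than 1 unit, and Gpc4 was higher within each, by 1.52 and 1.08 (mean 1.30, SE 0.13, adjusted p = 0.0116). Without the block this gene was far from passing (adjusted p = 0.70). Gremlin 1 (Grem1), another antagonist that binds BMPs, went from 4.17 and 4.51 to 5.45 and 5.76, a log2 difference of 1.26 (SE 0.16, adjusted p = 0.0346, and 0.421 without the block). Its Alone values lay well below the array medians, and the TSP1 array of culture 2 read 5.67, within the Gpc4 range. The other measured antagonists, chordin (Chrd) and follistatin (Fst) among them, lay between -0.33 and 0.39 and did not pass.

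Id proteins lack a DNA-binding domain and hold basic helix-loop-helix factors in inactive pairs, and 3 of the 4 Id genes rose. Id1 went from 7.86 and 8.2 to 9.91 and 10.06, a log2 difference of 1.96 (SE 0.10, adjusted p = 0.000408) or 3.88-fold. Id3 went from 7.88 and 8.40 to 10.16 and 10.52, a difference of 2.20 (SE 0.12, adjusted p = 0.000408, and 0.0532 without the block). Both probe sets of Id2 rose, by 1.94 and 1.63, with Gpc4 values of 9.55 to 10.07 against Alone values of 7.91 to 8.03. The Gpc4 and Alone arrays did not overlap for any of the 3 genes, which held for all 64 called probe sets. The call rule favours this, and the share of all probe sets that lie apart was not computed. Id4 read 9.76 and 9.67 in Alone RGCs and 10.36 and 10.31 with Gpc4, which left it just outside the threshold at 0.62 (SE 0.087, adjusted p = 0.0525). Its 3 other probe sets differed by 0.33, 0.57 and 0.61 and did not pass either.

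Smad9, one of the SMADs that BMP receptors phosphorylate, was the only one of 6 signaling SMADs called. It read 6.76 and 6.86 in Alone RGCs, 8.90 and 8.93 with Gpc4 and 6.99 and 6.98 with TSP1. The difference was 2.10 (SE 0.087, adjusted p = 0.000235), which is 4.30-fold, with 2.14 in culture 1 and 2.07 in culture 2. Its second probe set read 3.18 to 3.65 on these arrays, below the medians, and showed a difference of 0.20 that did not pass (adjusted p = 0.715). The other SMADs, Smad1 to Smad5, differed by -0.20 to 0.10 and did not pass.

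Smad7, which blocks receptor-activated SMADs inside the cell, went from 6.01 and 6.37 to 7.76 and 7.87. The rise of 1.62 (SE 0.12, adjusted p = 0.00247) was seen on 1 of its 3 probe sets, and the other two had Alone values of at most 5.05 and differences of 0.29 and 0.08. Bambi, a membrane protein that resembles a type I receptor without the kinase, went from 5.52 and 5.67 to 6.25 and 6.43, a difference of 0.74 (SE 0.093, adjusted p = 0.0332, and 0.0774 without the block). The cultures gave 0.73 and 0.76, and the Alone values lay below the array medians. Smad6, the other inhibitory SMAD, differed by -0.05 (adjusted p = 0.939), and Skil, a SMAD corepressor, by 0.40 (adjusted p = 0.249).

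Krüppel-like factor 10 (Klf10), a zinc-finger transcription factor that BMP and TGF-beta induce, was the only one of 10 target transcription factors called. Its values of 7.49 and 7.72 rose to 8.50 and 9.0, by 1.15 on the log2 scale (SE 0.11, adjusted p = 0.00928, and 0.102 without the block). The factors Msx1, Msx2, Dlx1, Dlx5, Gata2 and Gata3 read 3.26 to 4.70 in Alone RGCs, all below the array medians, with differences of 0.005 to 0.15. The 10 BMP-family ligands lay between -0.53 (Bmp6, adjusted p = 0.26) and 0.16, the 7 TGF-beta and activin ligands between -0.42 (Inhba, adjusted p = 0.196) and 0.52, and the 13 receptors and coreceptors between -0.33 and 0.15. The 12 targets of the TGF-beta arm, such as Ccn2, Fn1 and Col1a1, lay between -0.39 and 0.32.

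**Figure D2:**
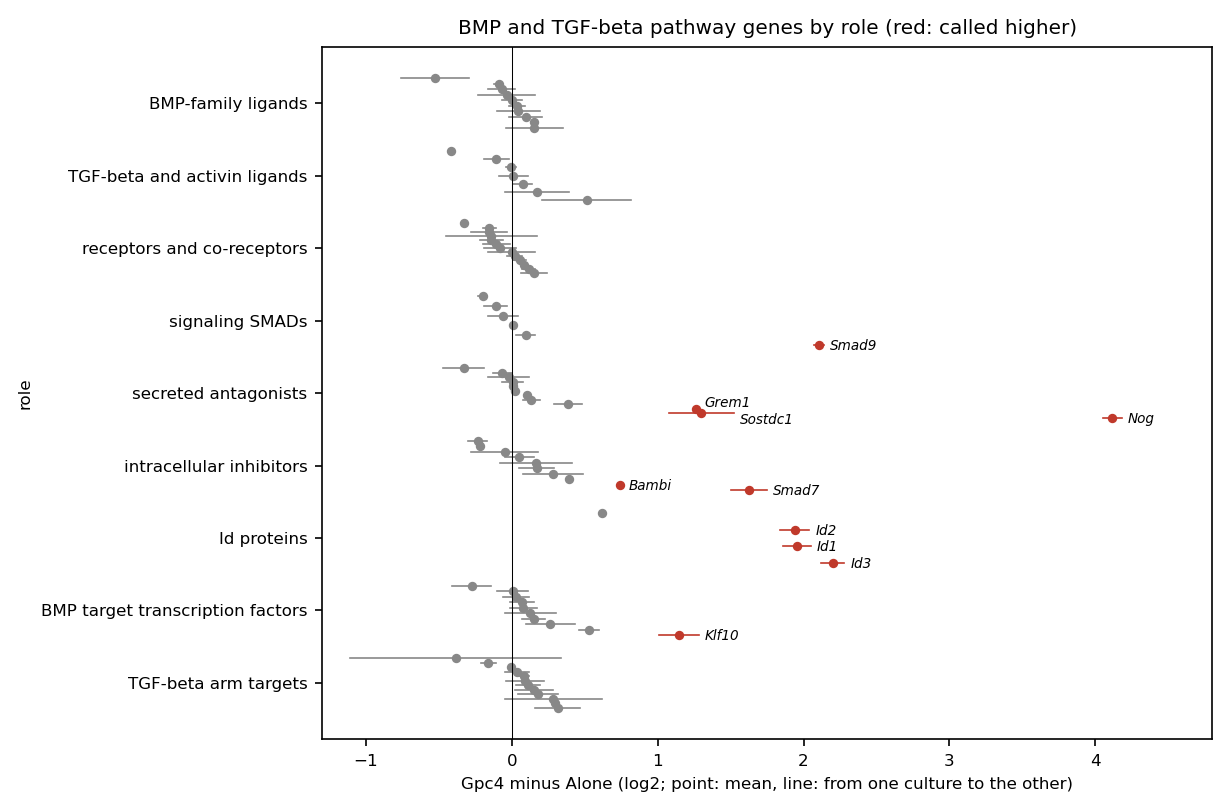
Gpc4 minus Alone (log2, horizontal axis) for the 84 measured genes of the BMP and TGF-beta pathway, grouped by role. Points are means of the 2 cultures, lines join one culture's difference to the other's, and red marks the 10 genes called higher, which lie between 0.74 (Bambi) and 4.12 (Nog).

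Hes1, a basic helix-loop-helix repressor best known as a Notch target, was also raised. It went from 5.48 and 5.85 to 7.52 and 7.63, a difference of 1.91 (SE 0.097, adjusted p = 0.000408), from an Alone level below the array medians. It was the only one of 8 Hes and Hey genes called, against 0.295% of all named genes called higher. Hey1 read 9.60 and 9.65 in Alone RGCs and 10.20 and 10.11 with Gpc4, and did not pass (0.53, SE 0.088, adjusted p = 0.107). None of the 9 Notch receptors and ligands and none of the 9 Notch modulators was called, with medians of -0.06 and 0.02. Of 14 Hedgehog pathway genes 1 was called, Disp3, a membrane protein of the Dispatched family, which went from 6.35 and 6.45 to 7.58 and 7.47 (1.13, SE 0.097, adjusted p = 0.00682). A second Disp3 probe set, with Alone values below the array medians, differed by 0.18 and did not pass (adjusted p = 0.587). None of 30 Wnt genes was called.

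Neuropeptide precursors were a second group with several calls, 3 of 25, against 0.295% of all named genes called higher. Their list, too, was chosen with earlier results of these data known. Vasopressin (Avp) read 9.14 and 9.41 in Alone RGCs and 11.12 and 11.30 with Gpc4, a difference of 1.94 (SE 0.087, adjusted p = 0.000296) or 3.82-fold. Thyrotropin-releasing hormone (Trh) read 7.64 and 7.33, then 8.82 and 8.91, a difference of 1.38 (SE 0.11, adjusted p = 0.00474). Proenkephalin (Penk), the precursor of the opioid enkephalins, read 6.73 and 7.12, then 7.44 and 7.84, a difference of 0.72 (SE 0.085, adjusted p = 0.0305). Gpc4 and Alone arrays did not overlap for any of the 3, as for all 64 called probe sets, which the call rule favours. For Penk the Alone array of culture 2 and the Gpc4 array of culture 1 lay close to each other, and the gene was lost without the block (adjusted p = 0.509). The others lay between -0.30 and 0.44, among them Cartpt, Nts and Vip, with Alone values of 11.99 to 13.63, at -0.05, -0.06 and -0.10. None of 10 secretory granule proteins and processing enzymes was called (median -0.06).

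The study asked which neuronal genes could carry the effect of Gpc4 on AMPA receptors. Of 128 measured synaptic and transmitter receptor genes 2 were higher with Gpc4 (against 0.295% of all named genes), none was lower, and the median difference was -0.02. Neuronal pentraxin 1 (Nptx1), a secreted protein that gathers AMPA receptors at synapses, read 11.32 and 11.29 in Alone RGCs, 12.18 and 12.19 with Gpc4 and 11.40 and 11.05 with TSP1. The rise came from a level far above the array medians, and the cultures gave 0.86 and 0.90. The mean rise was 0.88 (SE 0.11, adjusted p = 0.0332), which is 1.84-fold, and without the block the adjusted p was 0.0792. The pentraxin receptor Nptxr differed by 0.03 (adjusted p = 0.96), and Nptx2 was not analysed here.

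Syndig1, a transmembrane protein that associates with AMPA receptors, went from 6.76 and 6.87 to 7.72 and 7.59. The rise was 0.84 (SE 0.10, adjusted p = 0.0314, and 0.0532 without the block), and it was the only call among the 13 measured auxiliary proteins on the list. Shisa8, of a family with several AMPA receptor-associated members, was on none of the lists and rose by 0.86 (SE 0.11, adjusted p = 0.0332) on 1 of its 2 probe sets, from 8.08 and 7.79 to 8.79 and 8.81. It did not pass without the block (adjusted p = 0.157). The 4 AMPA receptor subunits were not called: Gria1 differed by 0.01, Gria2 by -0.25, Gria3 by -0.12 and Gria4 by 0.01 (adjusted p of 0.489 to 0.98). The TARP genes Cacng2 and Cacng3 differed by -0.33 and -0.53 and did not pass (adjusted p = 0.421 and 0.285). None of 27 presynaptic, 18 postsynaptic and 16 adhesion genes was called, nor any of 12 NMDA and kainate, 13 GABA and glycine and 14 nicotinic and metabotropic receptor genes. Apart from the pair of pentraxin genes, the list medians ran from -0.05 to 0.02.

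**Figure D3:**
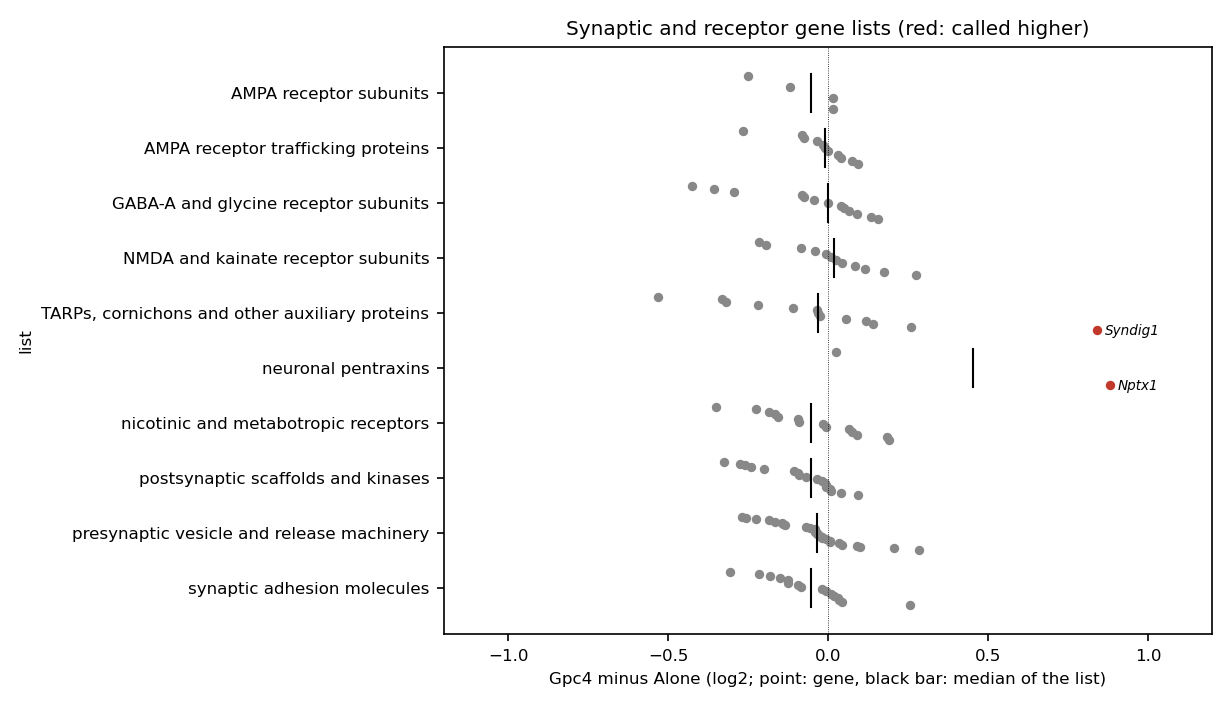
Gpc4 minus Alone (log2, horizontal axis) for 128 synaptic and receptor genes in 10 lists, 1 point per gene and a black bar at each list's median. Syndig1 at 0.84 and Nptx1 at 0.88 stand apart on the right, and all other genes lie between -0.53 and 0.29.

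Other raised genes coded for signaling proteins and receptors. Both probe sets of Dusp1, a phosphatase that switches off MAP kinases, rose by 1.03 and 1.29 (adjusted p = 0.0185 and 0.0322), and neither passed without the block. Dusp1 was the only one of 23 immediate early genes called, against 0.295% of all named genes called higher. Fos, Fosb, Ier3 and Egr4 differed by 0.68, 0.77, 0.76 and 0.56 with adjusted p of 0.0598 to 0.153, while Arc differed by -0.015 and Jun by -0.40, and the list median was 0.12. The neurotrophin receptor p75 (Ngfr) went from 5.89 and 6.28 to 6.70 and 7.0 (0.77, SE 0.10, adjusted p = 0.039), and Adam17, a protease that sheds membrane proteins, from 6.55 and 6.5 to 7.25 and 7.19 (0.70, SE 0.088, adjusted p = 0.0332). These were 2 of 15 neurotrophin and CNTF pathway genes (against 0.295% of all named genes called higher), and both were lost without the block (adjusted p = 0.302 and 0.0532). The glucocorticoid receptor (Nr3c1) rose by 0.96 (SE 0.11, adjusted p = 0.023) from 6.49 and 6.48 to 7.36 and 7.52 and passed both fits. Its second probe set, with Alone values below the array medians, differed by 0.12 and did not pass (adjusted p = 0.755). Il1rl1, the receptor of interleukin 33, rose by 1.06 (SE 0.13, adjusted p = 0.0332), with cultures at 0.78 and 1.33, on 1 of its 2 probe sets (the other differed by -0.04), and the serotonin receptor Htr5b by 1.07 (SE 0.096, adjusted p = 0.00781) from Alone values of 4.11 and 3.90. Neither passed without the block (adjusted p = 0.724 and 0.102).

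Transcription factors, enzymes and surface proteins made up most of the rest. Both probe sets of Cxxc5, a zinc-finger protein, rose: 10.39 and 10.47 went to 11.44 and 11.45 on the first (1.01, SE 0.088, adjusted p = 0.00695) and 10.33 and 10.29 to 11.10 and 11.21 on the second (0.84, SE 0.089, adjusted p = 0.0185). The homeobox gene Gbx2 rose by 1.12 (adjusted p = 0.00435), from below the array medians, and Samd11 by 1.87 (adjusted p = 0.00145), likewise. A second Gbx2 probe set, also from below the medians, differed by 0.465 and did not pass (adjusted p = 0.238). Serpine2, a secreted inhibitor of serine proteases, went from 5.11 and 6.04 to 6.65 and 7.29 (1.395, SE 0.11, adjusted p = 0.00435). Its Alone arrays lay almost 1 unit apart, and it did not pass without the block (adjusted p = 0.461). The sulfotransferase Chst8 rose on both probe sets (1.10 and 1.08, adjusted p = 0.00619 and 0.00781), and Islr2, a leucine-rich repeat protein of axons, went from 9.84 and 9.83 to 10.71 and 10.75 (0.90, SE 0.093, adjusted p = 0.0185). Fam167a rose by 1.53 (SE 0.099, adjusted p = 0.00145) from 7.90 and 7.71 to 9.32 and 9.35. Ctxnd1 rose by 1.27, Krt6c by 1.12, Ifitm10 by 0.95, Eeig1 by 0.87, Lratd1 by 0.82, Sele by 0.80, Shf by 0.79, Kif18a by 0.75, the phosphate transporter Slc20a1 by 0.72, Spsb1 by 0.72 and Xirp1 by 0.68, with adjusted p of 0.0156 to 0.0428. Of these Ctxnd1, Eeig1, Sele, Kif18a, Slc20a1 and Xirp1 did not pass without the block (adjusted p of 0.0532 to 0.176). The Alone values of Ctxnd1, Sele, Kif18a and Xirp1 lay below the array medians, with Sele lowest at 3.76 and 3.8. A second probe set of Spsb1 rose by 0.65 with the block, and another, with Alone values of 6.31 and 6.12, differed by 0.07 and did not pass. The called Krt6c probe set is of a type that can pick up related keratins. The gene's other probe sets, with Alone values below the medians, differed by 0.77 and 0.585 and did not pass.

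Fewer genes were lower, and none of them passed without the block. Interleukin 24 (Il24), a cytokine, fell most. It read 10.45 and 10.05 in Alone RGCs, 9.24 and 9.0 with Gpc4 and 10.28 and 10.40 with TSP1, a difference of -1.13 (SE 0.13, adjusted p = 0.0243), or 2.19-fold lower. It was the only one of 27 cytokine and interferon response genes called, against 0.0352% of all named genes called lower. Atf3, a transcription factor that injured neurons switch on, went from 9.02 and 9.35 to 8.2 and 8.16 (-1.005, SE 0.11, adjusted p = 0.0222), or 2.01-fold lower. It was the only one of 22 axon injury and regeneration genes called, beside the same share of 0.0352%. Gadd45a, Sprr1a and Jun of that list differed by -0.45, -0.40 and -0.40 and did not pass (adjusted p of 0.337 to 0.367), Gap43 differed by 0.02, and the list median was -0.11.

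Deptor, an inhibitor of the growth kinase mTOR, went from 9.75 and 9.72 to 9.10 and 8.91 (-0.73, SE 0.091, adjusted p = 0.0332). It was the only one of 25 genes of the IGF axis and mTOR called, against 0.0352% of all named genes called lower. Its second probe set, with Alone values below the medians, differed by -0.60 and did not pass (adjusted p = 0.341). Slc16a6, of the monocarboxylate transporter family, fell by 0.69 (SE 0.086, adjusted p = 0.0332) from 10.11 and 10.17 to 9.47 and 9.43, and its second probe set differed by -0.63 just outside the threshold (adjusted p = 0.0522). Gtdc1, a glycosyltransferase-like protein, fell by 0.66 (SE 0.086, adjusted p = 0.0403). Beyond these, the growth factor Igf1 differed by -0.68 (adjusted p = 0.0609), Filip1 by -0.93 (adjusted p = 0.0621) and the adrenergic receptor Adra2a by -0.70 (adjusted p = 0.104), in the same direction in both cultures without passing.

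The transcripts of Gpc4's own family and of its receptors were not called. Endogenous Gpc4 mRNA read 5.67 and 6.52 in Alone RGCs and 6.15 and 6.58 with Gpc4 protein (0.27, SE 0.13, adjusted p = 0.559). The receptor phosphatases Ptprs, Ptprd and Ptprf differed by -0.14, -0.11 and -0.14. No gene of the lists for glypicans, syndecans and agrin, for heparan sulfate enzymes, or for thrombospondins and their receptor subunits passed, and the list medians were 0.01, -0.01 and 0.04. Voltage-gated channels, axon guidance, apoptosis, sterol synthesis, the unfolded protein response, hypoxia, cell cycle and respiratory chain lists held 0 calls, with medians between -0.10 and 0.02.

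Markers of other cells were read beside these results. Of 78 measured markers of astrocytes, Müller glia, microglia, fibroblasts, vessels, oligodendrocytes, photoreceptors, bipolar, amacrine and horizontal cells none was called, 42 had Alone values below the array medians, and the list medians ran from -0.075 to 0.11. Summed linear signals overlapped between Gpc4 and Alone for astrocytes (6336 to 7050 against 6646 to 6791), Müller glia (16056 to 18605 against 17042 to 19057), microglia (539 to 790 against 497 to 927), fibroblasts (2534 to 4400 against 2396 to 4805) and oligodendrocytes (798 to 856 against 827 to 899). They did not overlap for vessels (717 to 780 with Gpc4, 626 to 639 in Alone RGCs), photoreceptor and bipolar cells (251 to 253 against 230 to 247) and amacrine and horizontal cells (8025 to 8207 against 8364 to 8664). With 2 arrays per group, values often lie apart without any difference in level. The share of all features that do so was not computed, so no change in these cells is read from it. In the vessel list the receptor Kdr read 6.84 and 7.36 in Alone RGCs and 7.86 and 8.0 with Gpc4 (0.83, adjusted p = 0.0644), while Pecam1, Cldn5, Vwf and Flt1 read at most 4.39 on every array. Of the 10 vessel genes measured, 3 were not below the array medians in Alone RGCs, Kdr among them, and 7 were below. The fibroblast genes differed between the cultures in both groups: Lum read 4.68 and 6.95 in Alone RGCs and 5.26 and 6.99 with Gpc4, and Dcn 5.59 and 7.75, then 6.41 and 7.48. The part of these markers in the results was not tested.

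The cultures gave like differences for the called genes, which the call rule itself favours. Across the 64 called probe sets the 2 differences lay a median of 0.16 apart and at most 0.55 (Il1rl1). Over all 31042 probe sets 52.6% had the same sign in both cultures, and the differences correlated at 0.25 across probe sets, or 0.40 above the median level and 0.10 below it, where probe sets share the same 4 arrays and are not independent. A rise of at least 0.58 in both cultures was seen for 78 probe sets, 57 of them called, and a fall of that size for 13, of which 7 were called. With the probe sets cut into 4 equal groups by their level in Alone RGCs, the calls numbered 3, 18, 29 and 14 from the dimmest to the brightest group.

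**Figure D4:**
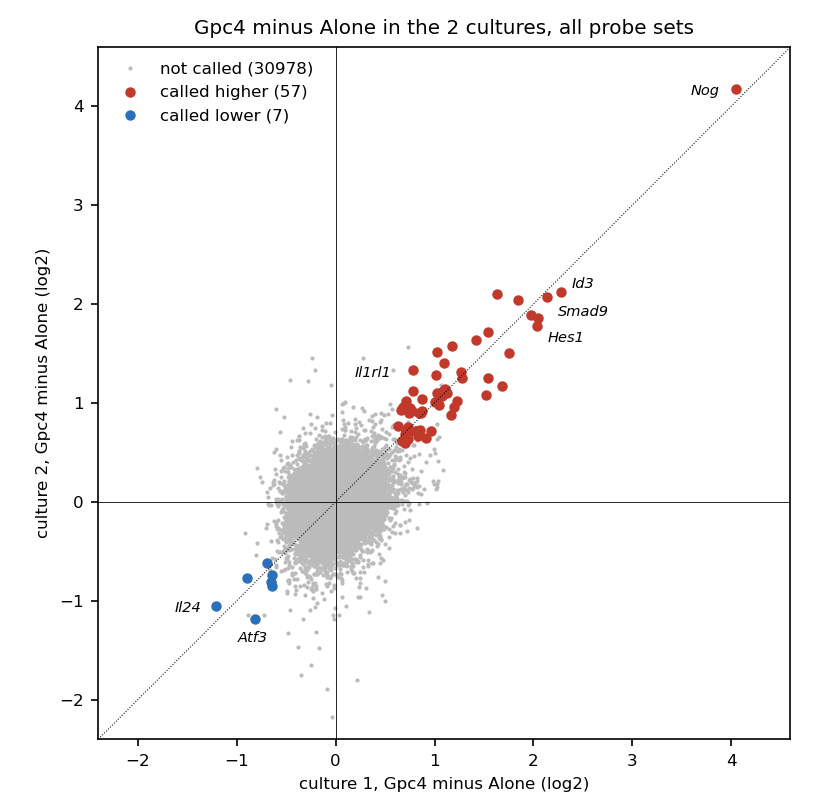
Gpc4 minus Alone (log2) in culture 1 (horizontal axis) and culture 2 (vertical axis) for all 31042 probe sets, with the 57 called higher in red and the 7 called lower in blue. Called probe sets follow the dotted line of equal differences, and Nog lies alone at 4.05 and 4.18.

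RGCs given TSP1, a protein that induces postsynaptically silent synapses, show the called genes beside a second treatment. Both treatments were measured against the same Alone arrays. The called genes were chosen on the same Gpc4 arrays that the direct test below uses. This favours a difference from TSP1, so their values in that test are not separate evidence. The TSP1 differences of the 57 probe sets raised by Gpc4 ran from -0.50 to 0.84 with a median of 0.11. A direct test of Gpc4 against TSP1 called 70 probe sets higher with Gpc4 (0.226% of those tested) and 10 lower (0.0322%). Of 11 fibroblast and matrix markers 5 were among these calls: the median of the list was -0.62 for TSP1 against Alone and 0.005 for Gpc4 against Alone, and in the direct test Inmt, Lum, Dcn and Mgp were higher with Gpc4 (2.56, 1.95, 1.77 and 0.68) and Postn was lower (-0.86). Their part in the Gpc4 against TSP1 values was not tested. In that test Nog was higher by 3.49 (SE 0.14), Id3 by 2.56 (SE 0.12), Id1 by 2.03 (SE 0.10), Smad9 by 1.93 (SE 0.087) and Avp by 1.87 (SE 0.087), each with an adjusted p of 0.000288 or 0.000397. Nptx1 was higher by 0.96 (SE 0.11, adjusted p = 0.0214) and Syndig1 by 0.92 (SE 0.10, adjusted p = 0.0187). Il24 and Atf3 were lower by -1.22 (adjusted p = 0.0143) and -0.97 (adjusted p = 0.02). The genes that did not pass against TSP1 included Grem1 (0.43, adjusted p = 0.687), Penk (0.46, adjusted p = 0.153), Bambi (0.60, adjusted p = 0.0722), Nr3c1 (0.61, adjusted p = 0.121) and Deptor (-0.59, adjusted p = 0.0707).

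**Figure D5:**
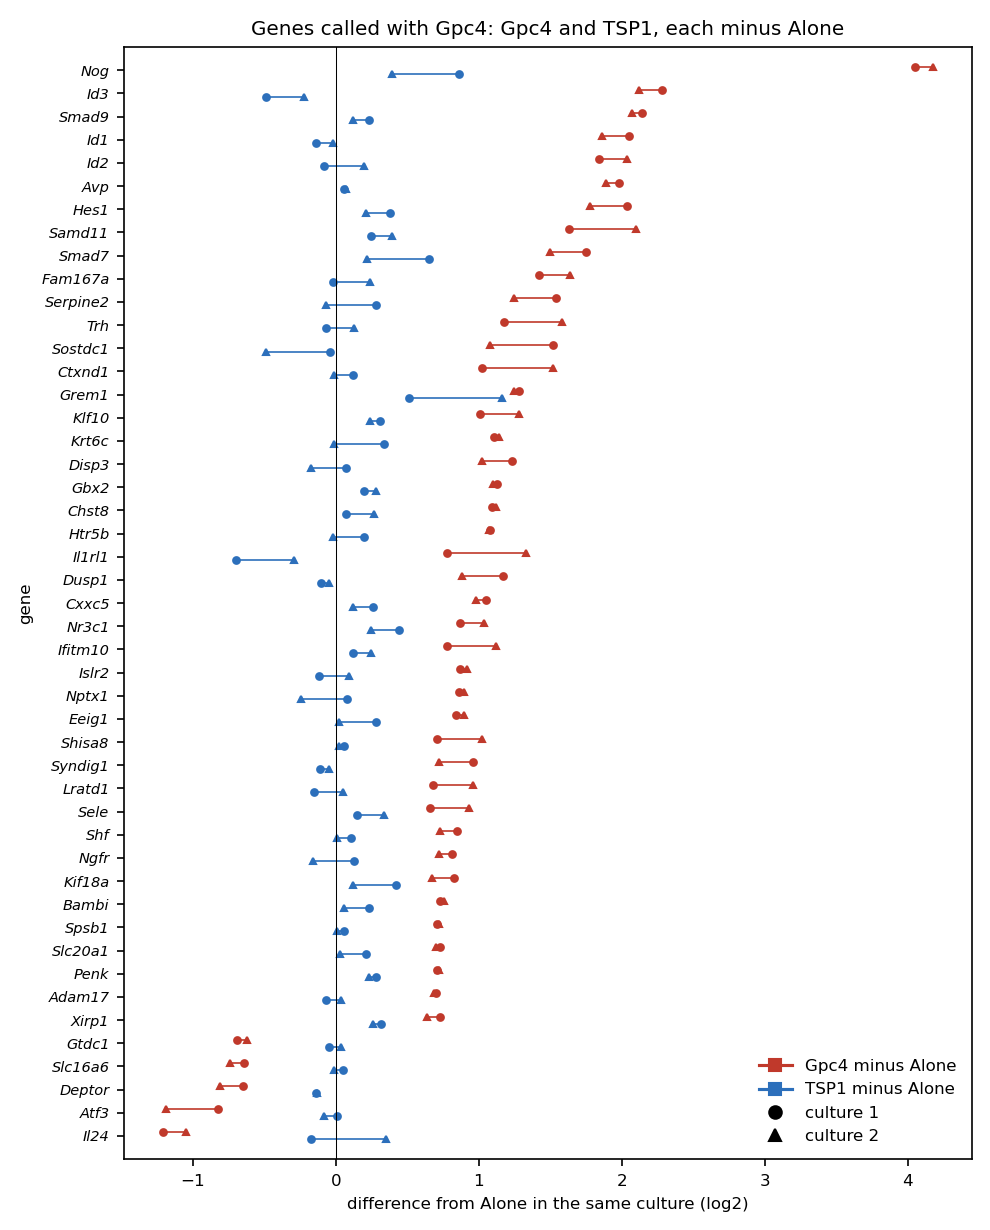
Difference from the Alone array of the same culture (log2, horizontal axis) for the 47 named genes called with Gpc4, for Gpc4 (red) and TSP1 (blue), with circles for culture 1 and triangles for culture 2. Red and blue share the Alone arrays, and the genes were chosen for their red differences. For each gene both red points lie farther from 0 in the called direction than both blue ones. The gap is narrowest for Grem1 in culture 2 (1.25 against 1.16).

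The calls rest on few arrays. A blocked fit of the 4 Gpc4 and Alone arrays alone, or of any 5 arrays, keeps 1 residual degree of freedom and called 0 probe sets, with 1193 to 2386 at an unadjusted p under 0.05. With no block, the number called was 8 and 6 without each Alone array, 4 and 2 without each Gpc4 array, and 13 without either TSP1 array. Nog and Smad9 were called each time.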

How the data were processed

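Values were measured on Affymetrix Rat Genome 230 2.0 arrays. Per the methods, the authors ran RMA in Affymetrix Expression Console, whose version is not given in the sources used here. RMA yields the deposited log2 values: background-corrected, normalized between arrays, summarised over the probes of a probe set and rounded to 2 decimals. Normalization between arrays assumes that most transcripts keep their level. Samples were grouped by their treatment labels, with no sample left out. Where nothing else is said, p-values come from limma 3.58.1 (R 4.3.3; lmFit, then eBayes; 1 mean per group, replicate number as a block, 2 residual degrees of freedom), two-sided, with Benjamini-Hochberg adjustment over 31042 probe sets and no filter or pseudocount. Replicate numbers were taken as pairs, since the methods state 2 cultures and arrays of the same number deviated together from the means of their groups (r of 0.29 to 0.37). The same fit was run on simulated arrays whose culture difference was the same in every group and whose spread was shuffled between probe sets. Those runs do not give error rates for the real arrays. The platform annotation gave 1 symbol for 20826 probe sets, several for 436 and none for 9780, and 20758 of the first were matched to RefSeq genes of GRCr8.

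Named genes were the 15 with the largest log2 change per direction among those called, filled to 8 with the smallest p at a change of at least 0.58. Lists were read on 1 probe set per gene, that of highest mean. The members and lists were chosen with earlier results of these data known. Alternatives were another block, filter, scaling, variance model, threshold and test, and leaving out each array. Figures were drawn with matplotlib 3.10.9.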

Additional observations from a re-analysis of the deposited data

How the results depend on the processing

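Against 64 changed probe sets (57 higher, 7 lower) and 80 between Gpc4 and TSP1, the fit with no replicate block called 26, 26, 0 and 19. The Gpc4 and Alone arrays alone gave 0, 0 and 0 with the block and 13, 13 and 0 with no replicate block. A variance trend gave 139, 108, 31 and 136, and an adjusted p under 0.10 gave 13 lower and 121 between Gpc4 and TSP1. A mean log2 value of at least 6, or above the median of all probe sets, gave 16 lower. The methods' t-test at an unadjusted 0.05 gave 1704, 808, 896 and 1433, and after Benjamini-Hochberg adjustment 0 for each (29 probe sets with no spread were left out). Leaving out each array in turn gave 0 for each count with the block. With no replicate block, an alternative chosen after seeing the data, it gave 8 and 6 changed without each Alone array, 4 and 2 without each Gpc4 array and 13 without either TSP1 array, with 2 to 13 higher, 0 to 1 lower and 2 to 13 between Gpc4 and TSP1. Median centring and quantile normalization gave 62 changed each, all among the 64. No named gene changed direction in any of these alternatives. The genes were chosen for the same sign in both cultures of these arrays, so this was likely beforehand and tests nothing. Of the 20 named genes that passed, 10 lost their call with no replicate block. Averaging the probe sets of each gene called 50 genes higher and 6 lower, a count of genes and not of probe sets, and the 4-array fits have no TSP1 comparison.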

Other observations

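Among the 12 called probe sets with no gene symbol, 10 were higher and 2 lower with Gpc4. These rises ran from 0.64 to 1.42 on the log2 scale and the falls were -0.75 and -0.83. They are counted here and not named.

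A few genes of pigment and muscle cells, chosen after their values were seen, read high on single arrays of culture 2. Dct, an enzyme of melanin synthesis, read 6.22 on the Alone array of culture 2 and 7.55 on the TSP1 array of culture 2, against 4.19 to 4.41 on the other 4 arrays. Tyrp1, of the same pathway, read 6.06 and 5.87 on those 2 arrays, against 4.21 to 4.46. Myl11, a myosin light chain of skeletal muscle, read 6.26 on the Alone array of culture 2 and 4.08 to 4.23 elsewhere. Efemp1, an extracellular matrix protein, read 5.74 there and 3.47 to 4.11 elsewhere. None of these 4 was called between Gpc4 and Alone, and their part in the results above was not tested.

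Klhl2, which is on no list and was also chosen after its values were seen, read 7.36 and 7.70 in Alone RGCs, 8.38 and 8.49 with Gpc4 and 8.26 and 8.08 with TSP1. It did not pass between Gpc4 and Alone (0.90, adjusted p = 0.0525, limma).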
